A study of Mus musculus with 6 samples.

Results

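The genes described here are 42 genes of the NRF2 antioxidant response, of glutathione and thioredoxin metabolism, of the pentose phosphate pathway that supplies their NADPH, and the metallothioneins Mt1 and Mt2. They were chosen by gene symbol, with earlier results of these data known, so the choice was not blind to how they moved. All 42 symbols were rows of the table, among 22105 rows with a gene identifier, and 41 passed the filter on low counts. The libraries were made from 4T1 cells, a mouse mammary carcinoma line of epithelial origin that serves as a model of triple-negative breast cancer, grown in DMEM with fetal bovine serum. One group received the vehicle DMSO and the other received 10 µM P3FI-90, an inhibitor of the histone demethylase KDM3B, each for 24 h, with 3 libraries per group, no batch label, 1 line, 1 dose and 1 time. The labels do not say whether the 3 libraries of a group came from separate cultures, so p-values measure the spread between these libraries only. The study made these libraries to learn how loss of KDM3B activity in tumor cells affects the recruitment and function of CD8+ T cells.

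NRF2, the product of Nfe2l2, is a transcription factor that KEAP1 holds in the cytoplasm and marks for degradation through a cullin ubiquitin ligase. Electrophiles and oxidants modify cysteines of KEAP1, NRF2 accumulates, and it binds antioxidant response elements as a dimer with a small MAF protein such as MAFG. Its known targets make and recycle glutathione, reduce thioredoxin, detoxify quinones and peroxides and supply NADPH, and many carcinoma lines express them at high levels. Metallothioneins are small cysteine-rich proteins that bind zinc and copper, and their genes answer to the metal-sensing factor MTF1 through metal response elements.

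Counts on named genes summed to between 31327094 and 37395732 per library. Normalized counts below are read counts scaled by edgeR's TMM method to the mean effective library size. Of the epithelial markers Epcam, Cdh1, Krt7, Krt8, Krt18 and Krt19, all 6 were detected, and their summed normalized counts were 149858 to 158390 in DMSO and 62410 to 65543 after P3FI-90. Of the basal markers Krt5 was at 0 and Krt14 was detected. The 6 leukocyte markers summed to 30.6 to 79.9 normalized counts in DMSO and 135 to 141 after P3FI-90. Most of it was Csf1r except in DMSO library 1, which had 34.4 for Csf1r, 23.3 for Ptprc and 16.2 for Lyz2. The 4 fibroblast markers summed to 1411 to 1470.4 and to 972 to 1065, nearly all Pdgfra, and the 3 endothelial markers to at most 26.4. The fall in epithelial marker counts and the rise in Csf1r went with the treatment, and their part in the results below was not tested. In bulk libraries fewer cells of a type and less RNA per cell cannot be told apart.

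After P3FI-90, most of these genes were lower, and a small group that includes Hmox1 was higher. By the quasi-likelihood test of edgeR, 31 of the 41 members tested were lower and 7 higher, and 3 were not called, with a Benjamini-Hochberg adjusted p below 0.05 over 12288 genes as the threshold. Of all genes tested, 39.4% were lower and 39.9% higher, 79.3% in all, so a call alone says little about a member, while lower members (75.6% of those tested) were more frequent than lower genes in the whole table, a comparison limited by that choice. The median log2 fold change of the members was −0.89, against 0.013 over all genes tested. A fall of at least 2-fold was seen in 18 members (43.9%), against 10.6% of all genes, and a rise of at least 2-fold in 2, Hmox1 and Osgin1, against 12.7% of all genes. The libraries of the groups did not overlap in 31 members that were lower and 8 that were higher, against 40.2% and 41% of all genes (81.2% in either direction). For any single gene an exact two-sided permutation test of 3 libraries against 3 cannot go below p = 0.1. Scaled by total counts, which raised the median of all genes by 0.21 on the log2 scale, 29 members were lower and 10 higher with a median of −0.67, and 62.9% of all calls were higher ones, against 50.3% with TMM. With that scaling Gss, Srxn1, Prdx1, Prdx6 and Taldo1 fell by less than 2-fold.

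**Figure D1:**
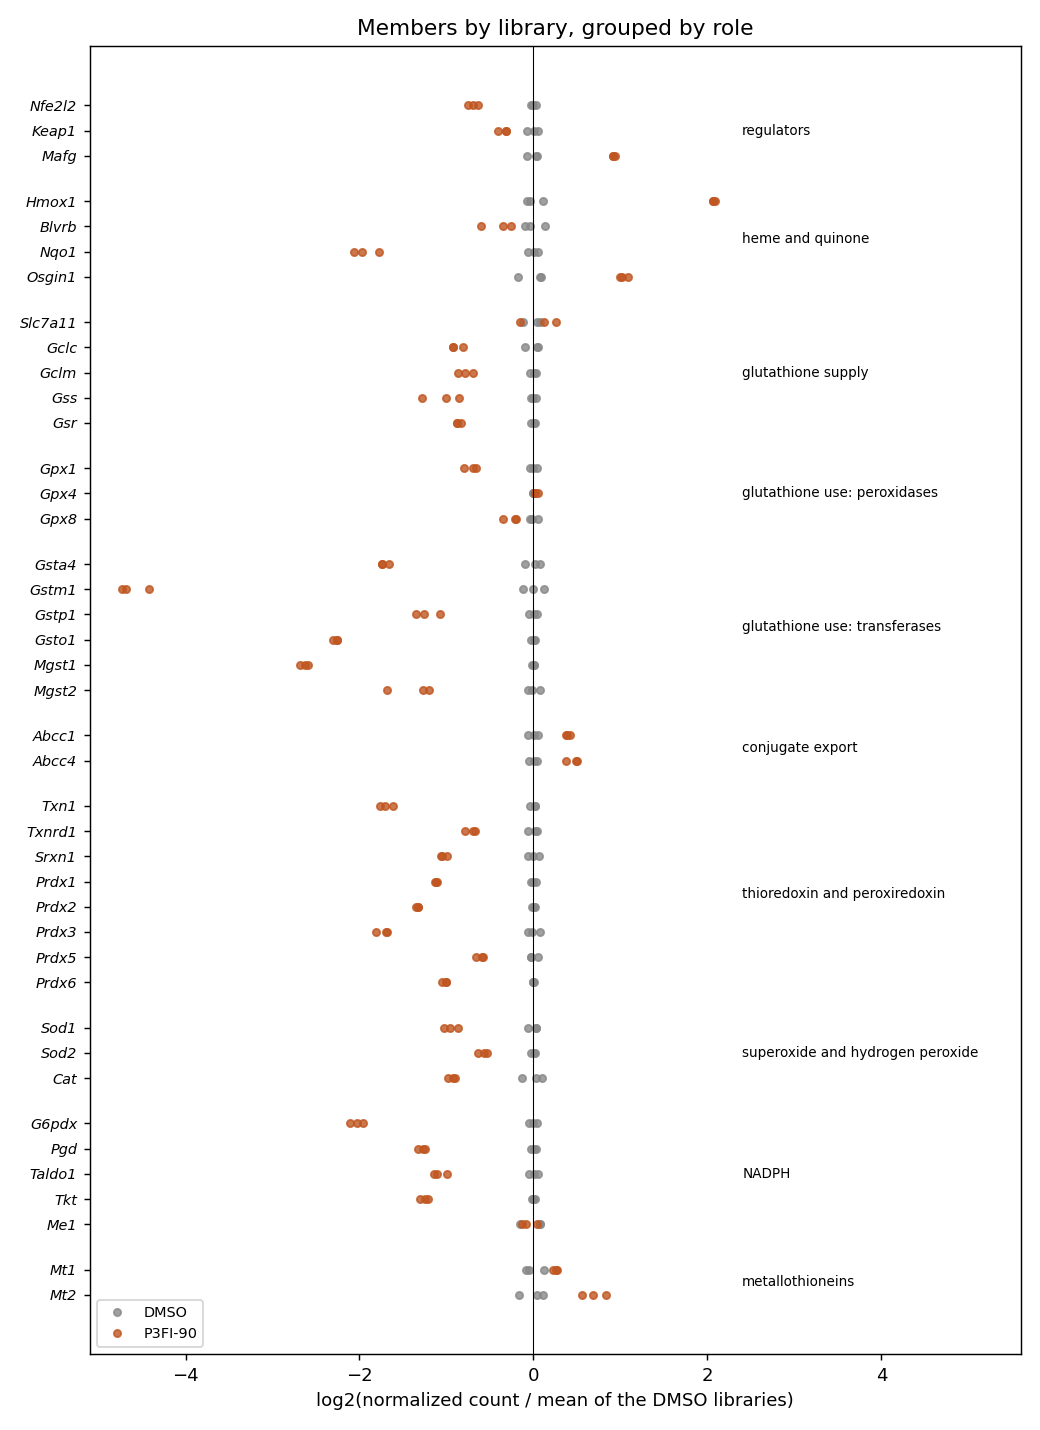
Each member tested in each library, as log2 of its normalized count over the mean of the DMSO libraries, with 3 grey points for DMSO and 3 orange points for P3FI-90 on every row and the members grouped by role. The P3FI-90 points lie left of the DMSO points for 31 members and right of them for 8, and the points of Slc7a11 and Me1 overlap.

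The members were more highly expressed and shorter than most genes, and both properties went along with lower counts in the table as a whole. Levels per length, in RPKM (reads per kilobase of exon, scaled to library size), had a median of 32.0 over the members in DMSO and 10.2 over all genes tested, and the median exon length was 1963 against 3294 bases. Among the other genes in the top 20% by level per length, 59.3% were lower and the median log2 fold change was −0.27. The 20 members at those levels had a median of −1.05, with 18 lower and 1 higher. The next 20% by level went the other way, as its 8 members had a median of 0.32, with 2 lower and 5 higher, against −0.020 for the other genes there. At the lower levels the medians of the members were between −1.52 and −0.83. Among the other genes in the shortest 20% by exon length, 52.7% were lower with a median of −0.32, and the 20 members there had a median of −1.15, with 16 lower and 3 higher. In the longest 20% the 5 members had a median of 0.087, with 2 lower and 2 higher, against 0.30 for the other genes, and at the lengths between the medians of the members were −1.02 to −0.35. When trends with length and GC content were taken out in the fit, 31 members were lower and 8 higher, with a median of −0.89.

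**Figure D2:**
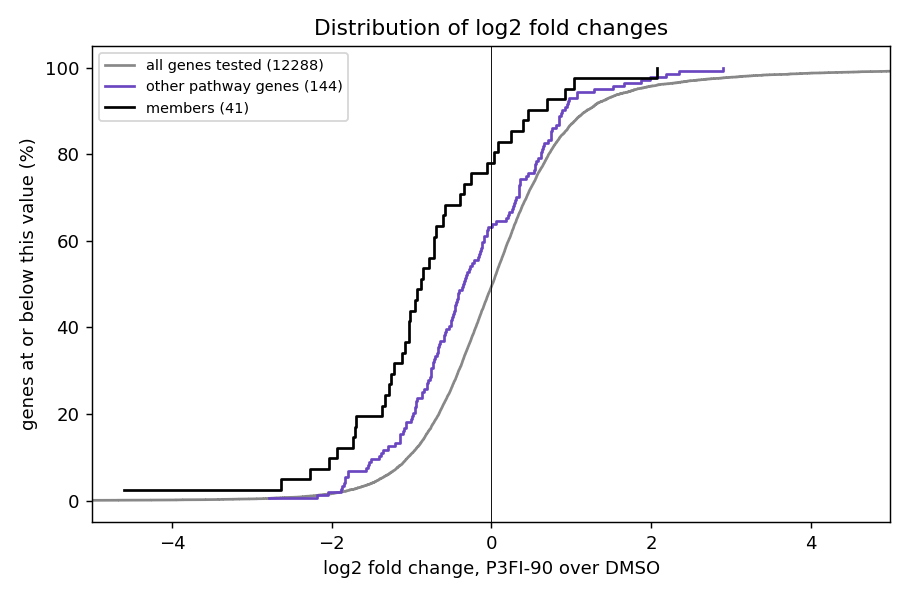
Cumulative share of genes, in percent, at or below each log2 fold change of P3FI-90 over DMSO, for the 41 members (black), 144 other genes of the same pathways (purple) and all 12288 genes tested (grey, drawn between −5 and 5). The member curve lies left of the grey one over most of its range, crosses 50% at −0.89 and ends at its highest value, Hmox1. The grey curve starts further left, as its lowest value is −8.53 and that of the members is −4.60 (Gstm1).

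In the promoters, the letters of the antioxidant response element were found in members of either direction. The windows searched were the 250 bases before each start in RefSeq's table for GRCm38.p6, which held 36 of the members. Hmox1, Gclc, Gsr, Gsta4, Prdx6 and Abcc1 were not among them. The antioxidant response element was searched as TGACNNNGC on both strands, and it was in 11 of the 36 members (30.6%) and in 11.5% of the 27025 genes of the table. It was in 7 of the 27 lower members with a window and in 3 of the 5 higher ones. Bases further upstream were not searched, so a member without a match here may hold the element elsewhere. Many members were chosen as genes of the NRF2 response, so their share is not an independent result. The metal response element was searched as TGCACNC or TGCGCNC on both strands, and it was in 8 of the 36 members (22.2%) and in 23.8% of all genes. These motifs may overlap motifs of other factors, since TGACNNNGC can hold the AP-1 site.

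The promoters of 6 members are shown. Mafg and Mgst1, and likewise Mt2 and Prdx1, share an identical element, and 1 gene of each pair rose and the other fell. Mt1 is shown as the second metallothionein, and G6pdx as a pentose phosphate gene with matches to both motifs. The choice was made after the values were seen, so the opposite directions within a pair are no result about the element. Other members with a match to the antioxidant response element are not shown. They were Nfe2l2, Gclm, Sod1 and Txnrd1 (lower), Abcc4 (higher) and Ggt1 (not tested). Each line gives the 250 bases before the start, 5′ to 3′ on the strand of the gene, with matches to either motif in capitals.
Mafg (higher), chr11:120633548-120633797, minus strand: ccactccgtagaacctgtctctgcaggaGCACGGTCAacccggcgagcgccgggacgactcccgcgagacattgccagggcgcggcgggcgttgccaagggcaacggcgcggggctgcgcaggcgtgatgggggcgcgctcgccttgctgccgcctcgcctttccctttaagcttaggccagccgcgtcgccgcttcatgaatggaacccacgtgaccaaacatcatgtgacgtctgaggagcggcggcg
Mgst1 (lower), chr6:138140277-138140526, plus strand: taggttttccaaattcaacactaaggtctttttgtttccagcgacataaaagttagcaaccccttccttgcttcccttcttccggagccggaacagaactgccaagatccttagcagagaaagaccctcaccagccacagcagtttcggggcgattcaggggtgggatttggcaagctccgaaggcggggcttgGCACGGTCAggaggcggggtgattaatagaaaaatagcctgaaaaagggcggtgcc
Prdx1 (lower), chr4:116685349-116685598, plus strand: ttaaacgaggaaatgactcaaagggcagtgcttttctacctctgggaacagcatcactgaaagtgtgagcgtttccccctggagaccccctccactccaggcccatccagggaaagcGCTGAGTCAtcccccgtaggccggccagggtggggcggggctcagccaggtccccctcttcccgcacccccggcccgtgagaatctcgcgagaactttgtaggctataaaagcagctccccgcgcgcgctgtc
Mt2 (higher), chr8:94172368-94172617, plus strand: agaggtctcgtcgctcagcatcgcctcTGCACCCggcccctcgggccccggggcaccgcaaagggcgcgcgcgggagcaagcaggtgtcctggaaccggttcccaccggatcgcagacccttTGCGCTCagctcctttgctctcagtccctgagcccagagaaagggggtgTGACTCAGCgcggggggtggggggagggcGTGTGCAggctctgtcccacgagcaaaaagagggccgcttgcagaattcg
Mt1 (higher), chr8:94178839-94179088, plus strand: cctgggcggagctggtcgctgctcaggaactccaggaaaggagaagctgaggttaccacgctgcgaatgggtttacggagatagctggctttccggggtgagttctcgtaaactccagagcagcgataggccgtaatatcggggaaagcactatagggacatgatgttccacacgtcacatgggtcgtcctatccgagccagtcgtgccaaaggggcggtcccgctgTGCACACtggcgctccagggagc
G6pdx (lower), chrX:74428881-74429130, minus strand: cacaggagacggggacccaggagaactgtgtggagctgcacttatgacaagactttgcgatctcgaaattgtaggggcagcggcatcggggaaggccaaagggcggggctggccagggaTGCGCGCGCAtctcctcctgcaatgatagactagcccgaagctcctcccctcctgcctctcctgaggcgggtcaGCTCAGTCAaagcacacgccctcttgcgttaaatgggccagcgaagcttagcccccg
Mafg and Mgst1 held the identical element, TGACCGTGC on the opposite strand, 222 to 214 bases before the start of Mafg and 56 to 48 bases before that of Mgst1. Prdx1 and Mt2 shared TGACTCAGC, at 133 to 125 bases on the opposite strand in Prdx1 and at 79 to 71 bases on the gene's own strand in Mt2. The element of G6pdx was TGACTGAGC on the opposite strand, 57 to 49 bases before the start, and its 2 further matches, which overlap each other, were to the metal response element. Within these 250 bases, Mt2 had 3 matches to the metal response element and Mt1 had 1, at 23 to 17 bases. Bases after each start were not searched, so elements there are missed if a gene's main start lies further downstream. A match is a run of letters and does not show that a factor binds there.

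Among the regulators, Nfe2l2 and Keap1 fell and Mafg rose. Nfe2l2 (ENSMUSG00000015839), which encodes NRF2, had normalized counts of 5316, 5433 and 5226 in the DMSO libraries and 3296, 3413 and 3164 in the P3FI-90 libraries. Every P3FI-90 library lay below every DMSO library, with means of 5325 ± 104 and 3291 ± 125 (SD, n = 3), and Nfe2l2 fell 1.62-fold (log2 fold change −0.69, SE 0.040, adjusted p = 9.01e-10 in edgeR). Keap1, the adaptor that marks NRF2 for degradation, had 2673, 2442 and 2586 in the DMSO libraries and 2061, 1936 and 2060.1 in the P3FI-90 libraries. It fell less than Nfe2l2, by 1.27-fold (log2 fold change −0.35, SE 0.053), again without overlap, and by less under total counts (log2 fold change −0.13, adjusted p = 0.0312). Mafg, one of the small MAF partners of NRF2, had 4307, 4281 and 3998 in the DMSO libraries and 7885, 8011 and 7937 in the P3FI-90 libraries, given by library because its promoter is shown. It rose 1.89-fold (log2 fold change 0.92, SE 0.038), and its P3FI-90 libraries lay close together.

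Hmox1 and Nqo1, common readouts of NRF2 activity, moved in opposite directions. Hmox1 (ENSMUSG00000005413), heme oxygenase 1, splits heme into biliverdin, carbon monoxide and iron, and it had normalized counts of 576, 643 and 562 in the DMSO libraries and 2485, 2533 and 2492 in the P3FI-90 libraries. It rose 4.22-fold, from 594 ± 43.3 to 2503 ± 25.8 (SD, n = 3; log2 fold change 2.08, SE 0.060, adjusted p = 8.58e-13 from the edgeR test), the largest rise of any member. Nqo1 (ENSMUSG00000003849), the quinone reductase, had 806, 872 and 845 in the DMSO libraries and 246, 214 and 202 in the P3FI-90 libraries. It fell 3.81-fold, from 841 ± 33.4 to 221 ± 22.9 (log2 fold change −1.93, SE 0.099, adjusted p = 2.87e-10), and the P3FI-90 libraries lay far below the DMSO libraries. Osgin1, an oxidative stress-induced growth inhibitor, had 1165, 965 and 1155 in the DMSO libraries and 2329.9, 2186 and 2211 in the P3FI-90 libraries, and rose 2.04-fold (log2 fold change 1.03, SE 0.068). Blvrb, a biliverdin and flavin reductase, fell 1.32-fold (log2 fold change −0.40, SE 0.16, adjusted p = 0.0355 in edgeR). The call of Blvrb was lost without DMSO library 3, P3FI-90 library 2 or P3FI-90 library 3 (adjusted p up to 0.123) and under total counts (adjusted p = 0.308).

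Of the genes of glutathione supply, 4 of the 5 tested fell and 0 rose. The enzymes that make and recycle glutathione fell together. Gclc, the catalytic subunit of glutamate-cysteine ligase, the rate-limiting enzyme of glutathione synthesis, had normalized counts of 1843, 2017 and 2038 in the DMSO libraries and 1037, 1118 and 1033 in the P3FI-90 libraries. Gclm, its modifier subunit, had 2424, 2542 and 2508 in the DMSO libraries and 1536, 1368 and 1448 in the P3FI-90 libraries. Neither gene had overlapping groups, and the log2 fold changes were −0.89 (SE 0.059) for Gclc and −0.78 (SE 0.054) for Gclm. Glutathione synthetase, Gss, had 1001, 989 and 1028 in the DMSO libraries and 415, 556 and 503 in the P3FI-90 libraries, a log2 fold change of −1.03 (SE 0.096) that was the largest fall in this group. Exons of Gss overlap antisense exons of Acss2 (log2 fold change −0.65), and the strandedness of the counts is not given. Gsr, glutathione reductase, fell 1.82-fold (log2 fold change −0.86, SE 0.035). Slc7a11, the light chain of the antiporter that imports cystine, a source of cysteine for glutathione, in exchange for glutamate, did not follow them. It had 738, 839 and 819 in the DMSO libraries and 957, 868 and 717 in the P3FI-90 libraries. Its groups overlapped, since the third P3FI-90 library was the lowest of all 6 and the first the highest, and its log2 fold change of 0.087 (SE 0.098) had a 95% interval of −0.12 to 0.30 (adjusted p = 0.425 from the edgeR test). Slc7a11 was called higher under total counts (log2 fold change 0.30, adjusted p = 0.0116) and lower when the length and GC trends were taken out (log2 fold change −0.46, adjusted p = 5.59e-04). Ggt1, which breaks down extracellular glutathione, had 6 counts in the first DMSO library and 0 in the other 5 libraries and was below the filter.

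Of the glutathione peroxidases, Gpx1 and Gpx8 fell and Gpx4 was not called. Gpx1, the main cytosolic peroxidase of this family, had normalized counts of 12399.6, 11818 and 12072 in the DMSO libraries and 6957, 7635 and 7462 in the P3FI-90 libraries and fell 1.65-fold (log2 fold change −0.72, SE 0.039, or −0.41 when the length and GC trends were taken out). Gpx8, a peroxidase of the endoplasmic reticulum, had a log2 fold change of −0.25 (SE 0.055), and its call was lost under total counts (log2 fold change −0.041, adjusted p = 0.501) and when the length and GC trends were taken out (adjusted p = 0.0638). Gpx4 reduces lipid hydroperoxides in membranes. Its means were 7586 ± 41.4 and 7746 ± 127 normalized counts (SD, n = 3), with a log2 fold change of 0.03 (SE 0.032) and a 95% interval of −0.039 to 0.099. All 3 P3FI-90 libraries of Gpx4 lay just above all 3 DMSO libraries. It was called higher under total counts (log2 fold change 0.24) and when the length and GC trends were taken out (0.31), and the pseudogene Gpx4-ps2 shares 34.7% of the 50-base windows of its transcripts. That pseudogene is not a row of the table.

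All 6 glutathione transferases among the members fell by more than 2-fold, and they include the 3 largest falls of any member. Gstm1 (ENSMUSG00000058135), a cytosolic transferase of the mu class, had normalized counts of 553, 650.4 and 596 in the DMSO libraries and 28.1, 23.4 and 22.5 in the P3FI-90 libraries. It fell 24.2-fold, from 599.6 ± 49.0 to 24.7 ± 2.98 (SD, n = 3; log2 fold change −4.60, SE 0.16, adjusted p = 4.04e-12 from the edgeR test). Among its 50-base windows 18.9% occur in other genes, mostly the pseudogene Gstm2-ps1. Mgst1, a microsomal transferase, had 659.8, 672 and 668 in the DMSO libraries and 108, 103 and 111 in the P3FI-90 libraries, a fall of 6.21-fold (log2 fold change −2.64, SE 0.11). Gsto1, of the omega class, had 4053, 4198 and 4162 in the DMSO libraries and 838, 864 and 865 in the P3FI-90 libraries, a fall of 4.83-fold (log2 fold change −2.27, SE 0.049). In these 3 genes the groups were far apart and the libraries within a group close together. Gsta4, which conjugates hydroxynonenal from oxidized lipids, had 957, 883 and 994 in the DMSO libraries and 282, 299 and 283 in the P3FI-90 libraries (log2 fold change −1.71, SE 0.085). Gstp1, of the pi class, had 5431, 5100.4 and 5314 in the DMSO libraries and 2208, 2502 and 2079.7 in the P3FI-90 libraries (log2 fold change −1.22, SE 0.059). The pi-class reads cannot be fully assigned, since 33.7% of the windows of Gstp1 also occur in its neighbour Gstp2 (log2 fold change −2.05, SE 0.27). Mgst2, the second microsomal transferase, had the lowest level per length of the 6 in DMSO, with normalized counts of 63.8, 60.2 and 58.2 in the DMSO libraries and 25.3, 18.9 and 26.4 in the P3FI-90 libraries (log2 fold change −1.37, SE 0.31). Under the alternatives the smallest falls of Gstp1 and Mgst2 were below 2-fold, at log2 fold changes of −0.84 and −0.71, and Gstm1 had −3.41 with limma on log2(CPM + 1). Of 11 further genes tested that were picked by a Gst or Mgst symbol, 7 were lower and 4 were not called, where 39.4% of all genes tested were lower. Gstcd was counted by its symbol only. Of the lower ones, Gstm2, Gstt3 and Gstcd fell less than 2-fold, with log2 fold changes of −0.73, −0.41 and −0.13. Those not called were Gstm4, Gstt2, Gsto2 and Gstz1, with log2 fold changes of 0.30, 0.56, 0.26 and −0.11, and these 7 were named after their values were seen.

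The exporters of glutathione conjugates among the members, Abcc1 and Abcc4, rose. Related genes outside the members were split, as Abcc3 fell (log2 fold change −1.87) and Abcc5 rose (1.07, SE 0.052). Abcc5 was named after its values were seen. Abcc1 had normalized counts of 5712, 5314 and 5558 in the DMSO libraries and 7193, 7237 and 7399.97 in the P3FI-90 libraries and rose 1.32-fold (log2 fold change 0.40, SE 0.037, adjusted p = 1.78e-07 from the edgeR test). Abcc4, a related exporter, rose 1.37-fold (log2 fold change 0.45, SE 0.054). When the length and GC trends were taken out, the log2 fold changes were 0.10 for Abcc1 (adjusted p = 0.0114) and 0.20 for Abcc4, and under total counts Abcc1 had 0.61. The groups of Abcc1 and Abcc4 did not overlap, and their rises were smaller than those of Hmox1, Osgin1 and Mafg.

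All 8 genes of the thioredoxin and peroxiredoxin system fell, 6 of them by more than 2-fold. Under total counts Srxn1, Prdx1 and Prdx6 fell by less than 2-fold, with log2 fold changes of −0.82, −0.90 and −0.81. Txn1, thioredoxin, the most abundant member per length in DMSO, had normalized counts of 18055, 17991 and 17295 in the DMSO libraries and 5799, 5449.8 and 5254 in the P3FI-90 libraries. It fell 3.23-fold, from 17780.3 ± 422 to 5501 ± 276 (SD, n = 3; log2 fold change −1.69, SE 0.040). Prdx3, the mitochondrial peroxiredoxin, had 6002, 6354 and 5788 in the DMSO libraries and 1888, 1863 and 1724 in the P3FI-90 libraries, a fall of almost the same size (log2 fold change −1.73, SE 0.049). The cytosolic peroxiredoxins fell less. Prdx1 had 28588, 29314 and 27984 in the DMSO libraries and 13216, 13098 and 13264 in the P3FI-90 libraries (log2 fold change −1.12, SE 0.030). Prdx2 had 20479, 20794 and 21016 in the DMSO libraries and 8164, 8272 and 8277 in the P3FI-90 libraries (log2 fold change −1.33, SE 0.030). Exons of Prdx2 overlap antisense exons of Rnaseh2a, whose log2 fold change was −1.59. Prdx6, a peroxiredoxin that also acts on phospholipids, had 14859.6, 14998 and 14879 in the DMSO libraries and 7415, 7222 and 7404 in the P3FI-90 libraries (log2 fold change −1.02, SE 0.031). Srxn1, sulfiredoxin, repairs over-oxidized peroxiredoxins and had 2049, 1959 and 1890.1 in the DMSO libraries and 945, 989.97 and 952 in the P3FI-90 libraries (log2 fold change −1.03, SE 0.055). In each of these 6 genes the groups did not overlap. Thioredoxin reductase, Txnrd1, fell 1.64-fold (log2 fold change −0.72, SE 0.040) and Prdx5 fell 1.53-fold (log2 fold change −0.61, SE 0.043). The log2 fold change of Prdx5 was −0.39 when the length and GC trends were taken out. Prdx5 overlaps antisense exons of Trmt112, whose log2 fold change was −0.49. The adjusted p of the 8 genes was at most 8.32e-09 from the edgeR test.

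The enzymes that remove superoxide and hydrogen peroxide also fell. Sod1, the cytosolic copper and zinc superoxide dismutase, had normalized counts of 7701, 7658 and 7191 in the DMSO libraries and 3852, 4129 and 3679 in the P3FI-90 libraries (log2 fold change −0.95, SE 0.045, adjusted p = 1.36e-10 from the edgeR test). Catalase, Cat, had a nearly equal log2 fold change of −0.93 (SE 0.059). Sod2, the mitochondrial enzyme, fell less, with a log2 fold change of −0.58 (SE 0.046), and 17.6% of its windows also occur in the gene AC166110.4. When the length and GC trends were taken out, the log2 fold changes were −0.62 for Sod1 and −0.91 for Sod2, so that Sod2 had the larger fall, and under total counts Sod2 had −0.36.

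In the supply of NADPH, the 4 pentose phosphate pathway genes among the members fell by more than 2-fold, while Me1 was not called. Other genes of the pathway, named after their values were seen, moved less or rose, with log2 fold changes of −0.66 for Pgls, −0.33 for Rpia and 0.43 for Rpe. G6pdx, glucose-6-phosphate dehydrogenase, catalyses the first and rate-limiting step of the pathway and had normalized counts of 8507, 8229 and 7975 in the DMSO libraries and 2018, 2119 and 1914 in the P3FI-90 libraries. It fell 4.08-fold, from 8237 ± 266 to 2017 ± 103 (SD, n = 3; log2 fold change −2.03, SE 0.044, adjusted p = 5.98e-14 from the edgeR test). Pgd, the second NADPH-producing enzyme of the oxidative branch, had 8789, 9023 and 9175 in the DMSO libraries and 3586, 3782 and 3737 in the P3FI-90 libraries (log2 fold change −1.28, SE 0.036). The fall of G6pdx was the largest of these 4. In the non-oxidative branch, transketolase, Tkt, had 19371, 19520.2 and 19906 in the DMSO libraries and 8451, 8277 and 7921 in the P3FI-90 libraries (log2 fold change −1.25, SE 0.034). Transaldolase, Taldo1, had 4143, 3976 and 4281 in the DMSO libraries and 1869.5, 1919.7 and 2074 in the P3FI-90 libraries (log2 fold change −1.08, SE 0.051). Under total counts the log2 fold change of Taldo1 was −0.87, a fall of less than 2-fold. The cytosolic malic enzyme Me1, a source of NADPH outside this pathway, had means of 2709 ± 241 and 2605 ± 159, with overlapping groups, a log2 fold change of −0.056 (SE 0.066) and a 95% interval of −0.20 to 0.086. Me1 was called higher under total counts (log2 fold change 0.16, adjusted p = 0.0408) and lower when the length and GC trends were taken out (−0.20, adjusted p = 0.0110), and 22.9% of its windows occur in other genes.

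Both metallothioneins rose. Mt1 (ENSMUSG00000031765) had normalized counts of 1039, 1175 and 1017 in the DMSO libraries and 1303, 1287 and 1255 in the P3FI-90 libraries. Mt2 (ENSMUSG00000031762) had 711, 679 and 589.9 in the DMSO libraries and 1063, 1181 and 973 in the P3FI-90 libraries. Every P3FI-90 library was above every DMSO library in both genes, narrowly so for Mt1. The log2 fold changes were 0.25 (SE 0.066) for Mt1 (adjusted p = 0.00300) and 0.70 (SE 0.090) for Mt2 (adjusted p = 5.70e-06 from the edgeR test), and their 95% intervals, 0.11 to 0.39 and 0.51 to 0.89, did not overlap. The log2 fold changes were 0.45 and 1.19 when the length and GC trends were taken out, and Mt1 had 0.47 under total counts. No 50-base window of either gene occurs in another gene, but Mt2 overlaps an antisense gene, Gm45774, not counted in the table.

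Per length, the members spanned more than 2 orders of magnitude, and their order changed with treatment. In DMSO the highest was Txn1, with 482 ± 11.4 RPKM (SD, n = 3). Sod1, Gpx1, Prdx1 and Prdx2 followed, with 334 ± 12.6, 322 ± 7.75, 321 ± 7.47 and 319 ± 4.15, and these neighbours lay within about their spread. Slc7a11 was the lowest tested member at 2.31 ± 0.156. After P3FI-90 the highest were Gpx1 (196 ± 9.37), Gpx4 (174 ± 2.86) and Sod1 (173 ± 10.1), of which Gpx4 and Sod1 lay within their spread of each other, and Txn1 was at 149 ± 7.49. Hmox1 went from 10.8 ± 0.786, below Nqo1 at 15.4 ± 0.614, to 45.5 ± 0.468, above Nqo1 at 4.05 ± 0.420. Gstm1 became the lowest tested member, at 0.514 ± 0.0622. Counts of all 42 members together made up 0.614% to 0.617% of the counts of a DMSO library and 0.398% to 0.405% of a P3FI-90 library. The exon lengths come from GENCODE M21, an older gene set than the build named by the submitters, so levels between genes are approximate.

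**Figure D3:**
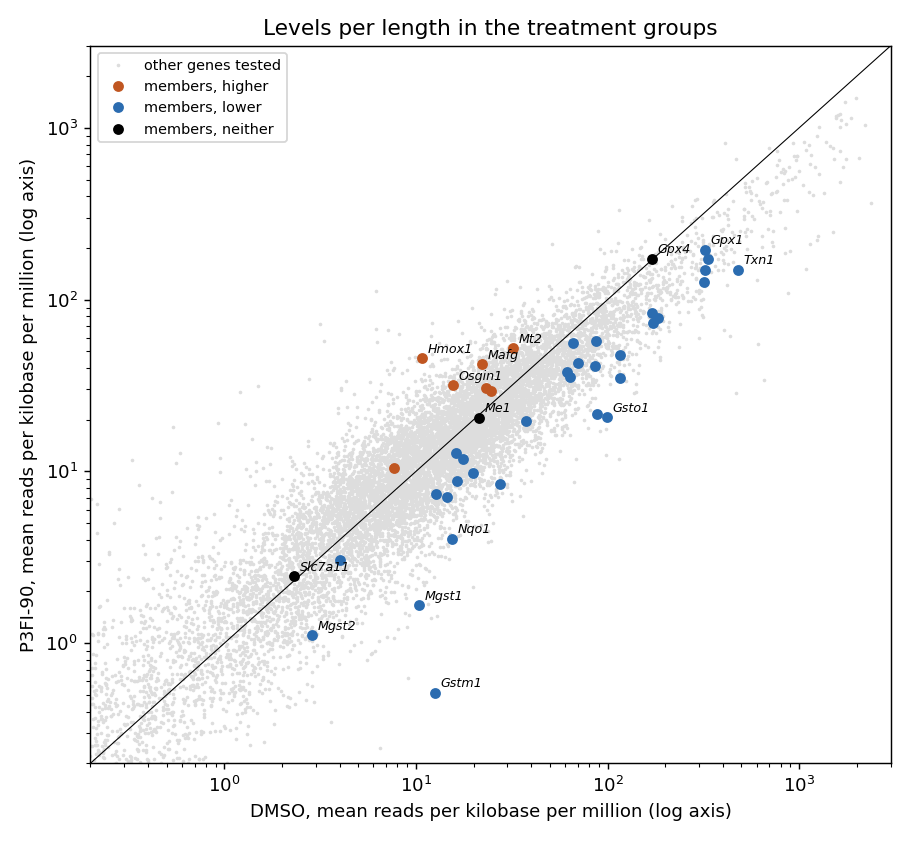
Mean level of each gene in DMSO (x axis) and P3FI-90 (y axis), in RPKM on log axes, with members colored by their call and the other tested genes in grey. The members that were not called lie near the diagonal, Hmox1 lies furthest above it and Gstm1 furthest below, and genes below 0.2 RPKM on an axis are not drawn.

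Other genes of the same pathways, listed from general knowledge, were also lower more often than higher. Of 168 listed genes 167 were in the table and 144 were tested, with 79 lower (54.9%) and 46 higher (31.9%), against 39.4% and 39.9% of all genes, and a median log2 fold change of −0.35. Under total counts the balance was closer, with 64 lower and 53 higher, where 62.9% of the calls over all genes were higher ones. In the list of further NRF2 targets, 18 of 22 were lower and 2 higher. Aldh3a1, an aldehyde dehydrogenase, fell from 359 ± 22.8 to 51.8 ± 9.31 normalized counts (SD, n = 3; log2 fold change −2.79, SE 0.17). Abcc3, the conjugate exporter given above, had a log2 fold change of −1.87 (SE 0.067), and Slc40a1, the iron exporter ferroportin, of −1.85 (SE 0.23).

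In the list of NRF2 control genes, which holds factors that bind the antioxidant response element and proteins that act on NRF2, 8 of 13 were higher and 4 lower. The shares over all genes tested were 39.9% and 39.4%. The median exon length of this list was 4709 bases, against 3294 over all genes tested. The other small MAF genes rose with Mafg, as Maff had normalized counts of 989.7, 996 and 950.2 in the DMSO libraries and 3927, 3871 and 3830.3 in the P3FI-90 libraries (log2 fold change 1.99, SE 0.049) and Mafk had a log2 fold change of 1.66 (SE 0.061). Bach2, a repressor that competes for these elements, rose from 43.6 ± 0.271 to 222 ± 5.86 (log2 fold change 2.35, SE 0.18). Outside the naming rule and chosen after their values were seen, Bach1, the repressor of Hmox1, rose (log2 fold change 0.29, SE 0.064). The KEAP1 binders Sqstm1 and Dpp3 moved in opposite directions, with log2 fold changes of 1.52 (SE 0.030) and −1.10 (SE 0.048), and Rxra, a nuclear receptor that can repress NRF2, had −0.81 (SE 0.061).

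The counts of this and the following lists stand against 39.4% lower and 39.9% higher over all genes tested. In the glutathione cycle list, 18 of 31 were lower and 5 higher. Cth, which makes cysteine from cystathionine, had a log2 fold change of −1.84 (SE 0.076) and Mgst3, the third microsomal transferase, of −1.83 (SE 0.11). Of the thioredoxin list, 9 of 16 were lower and 6 higher. Txnip, the inhibitor of thioredoxin, rose from 1938 ± 173 to 8811 ± 180.2 normalized counts, opposite to Txn1 (log2 fold change 2.19, SE 0.054). Prdx4, the peroxiredoxin of the endoplasmic reticulum, had a log2 fold change of −1.14 (SE 0.059), and Msrb2, a methionine sulfoxide reductase, of −1.07 (SE 0.17). Of the NADPH list, 9 of 12 were lower and 3 higher. The NADPH-producing isocitrate dehydrogenases Idh1 (cytosolic) and Idh2 (mitochondrial) had log2 fold changes of −2.18 (SE 0.063) and −1.80 (SE 0.043), and the mitochondrial malic enzyme Me3 of 1.87 (SE 0.17).

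For metal handling the balance was the other way, with 12 of 19 genes higher and 4 lower, against 39.9% and 39.4% of all genes tested. The median log2 fold change of this list was 0.35. Its median exon length was 4280 bases, against 3294 over all genes tested. Of the genes other than members with exons of 3854 to 5470 bases, 44.0% were higher. The part of length in the counts of the lists was not tested. The zinc importer Slc39a10 fell, from 2895 ± 73.8 to 836 ± 35.0 normalized counts (log2 fold change −1.79, SE 0.053). The zinc transporter Slc30a7 rose (log2 fold change 0.95, SE 0.062), and so did Slc31a2, a relative of the copper importer (log2 fold change 0.97, SE 0.10). Outside the naming rule and chosen after their values were seen, Mtf1, the metal-sensing factor, had a log2 fold change of 0.84 (SE 0.080) and its target Slc30a1, a zinc exporter, of 0.89 (SE 0.091). In the list of selenoprotein genes, 8 of 15 were lower and 6 higher, among them Sephs2, which makes the selenium donor, with a log2 fold change of −1.51 (SE 0.061), Selenoh with −1.21 (SE 0.054) and Selenos with 1.07 (SE 0.093). Of the heme genes, 7 of 10 were lower and 3 higher. Hmox2, the constitutive heme oxygenase, had a log2 fold change of −0.94 (SE 0.060), opposite to Hmox1, while the heme synthesis gene Uros had 0.96 (SE 0.16). The list of superoxide sources and chaperone had 6 genes tested, with 2 lower and 1 higher. The lower ones were not sources but Ccs, the copper chaperone of SOD1 (log2 fold change −0.54, SE 0.093), and the dismutase gene Sod3 (−1.39, SE 0.59). Nox1 was the higher one, at means of only 2.01 and 14.3 normalized counts in DMSO and P3FI-90. The oxidase genes Cyba, Nox4 and Noxo1 were not called. All of these but Ccs were outside the naming rule and named after their values were seen.

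**Figure D4:**
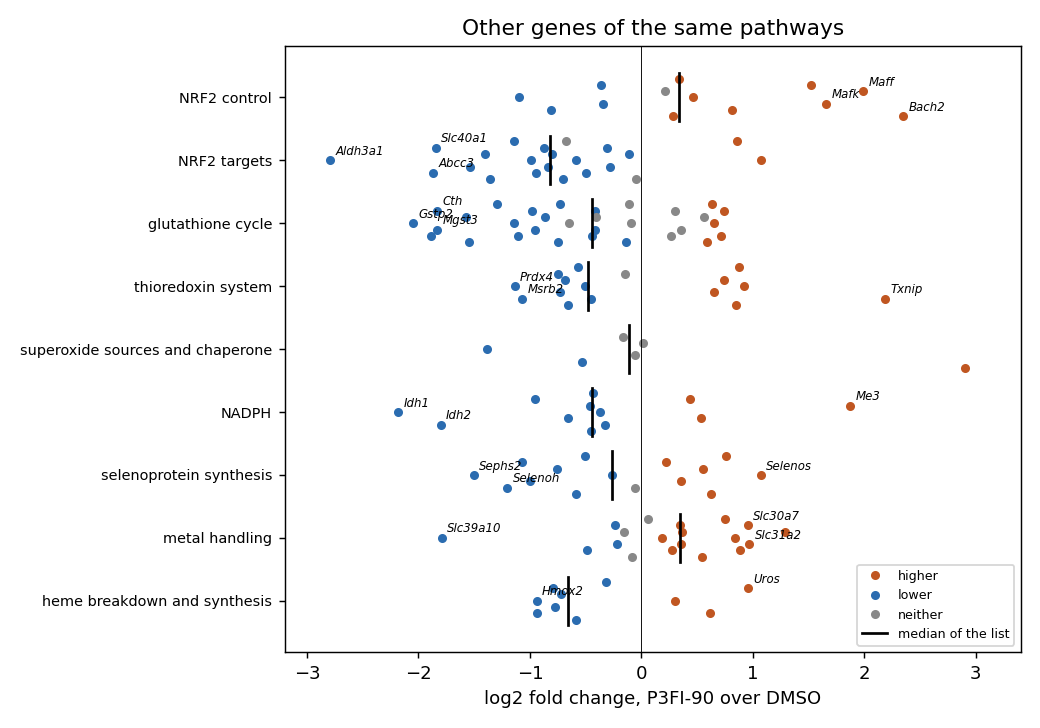
Log2 fold change of P3FI-90 over DMSO for each tested gene of the 9 lists, 1 point per gene, colored by its call, with a black bar at the median of each list. The median is below 0 in 7 lists and above 0 in NRF2 control (0.34) and metal handling (0.35).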

How the data were processed

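The submitters' processing notes name CASAVA, HISAT2, StringTie and GRCm39, with no role or order. Library preparation used the Illumina mRNA-Seq kit. Strandedness, annotation and counting settings are not given in the sources used here. The authors deposited whole-number read counts per gene without normalization. Counts of 2 were more frequent than counts of 1 in all 6 libraries, and whether mates of a pair were counted singly is not given. The 285 rows of assembled transcripts (0.483% to 0.556% of a library's counts) and 11 rows with transcript identifiers, all at 0, were left out.

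Genes were filtered with filterByExpr, normalized by TMM and compared by the quasi-likelihood test of edgeR 4.0.16 (R 4.3.3) over 12288 genes, without covariates. The study names limma, which was an alternative (limma 3.58.1), with DESeq2 1.42.0. The alternatives also covered scaling, filters, a replicate block and leaving out libraries. Scripts were tested on simulated data. Exon lengths and shared 50-base windows came from GENCODE M21 (GRCm38), which held 21995 of 22105 identifiers, and promoters from RefSeq.

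Members and lists were chosen with earlier results of these data known. By rule, values per library are given for Nfe2l2, Keap1, Hmox1, Nqo1, Slc7a11, Gclc, Gclm, Mt1, Mt2, every member changed at least 2-fold and, in a role without one, the member with the smallest p. The rule also names the 3 largest changes of each list at 100 or more normalized counts, of which a gene of the heme list is not reported here.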

Additional observations from a re-analysis of the deposited data

How the results depend on the processing

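The alternatives were other scalings (DESeq2's size factors, total counts, upper quartiles), no filter, a filter of 10 counts, DESeq2, limma-voom, limma on log2(CPM + 1), a block for replicate number, and leaving out 1 library at a time. Removal of a length and GC trend by splines was chosen after the data were examined. The counts of lower and higher members stayed within 1.5 times in all of these, at 29 to 31 lower and 7 to 10 higher. With each library left out in turn there were 30 to 31 lower and 7 higher members, and the median log2 fold change ranged from −0.93 to −0.86. That median was −0.67 under total counts, −0.93 with upper quartiles and −0.85 with limma on log2(CPM + 1). The sign reversed for 3 members that were not called: Me1 under total counts (0.16), Gpx4 with upper quartiles (−0.0085), and Slc7a11 without P3FI-90 library 1 (−0.011, in a range up to 0.19 over the libraries left out) and with the length and GC trend removed (−0.46). Of the 41 members, 39 kept both call and sign in all fits that left out 1 library, the exceptions being Blvrb and Slc7a11. Calls were lost in 8 fits of single members, 6 of Blvrb and 2 of Gpx8, and the causes were not tested. Equal replicate numbers did not pair the libraries, as deviations from the group means correlated by −0.021, 0.015 and 0.0049, and the replicate block left 30 members lower and 7 higher with a median of −0.89, the lost call being Blvrb (adjusted p = 0.0613). Depth limits most the members with few counts: Ggt1, Mgst2, Blvrb and, after P3FI-90, Gstm1.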
